A study of Homo sapiens with 6 samples.

Results

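MALAT1 and NEAT1 are neighbouring nuclear long noncoding RNAs (lncRNAs), and both were followed here along their length in PAR-CLIP libraries of HEK293 cells, a human embryonic kidney line. Both genes are on the plus strand of chromosome 11 in hg19, the build named for these files. MALAT1 (ENSG00000251562) spans chr11:65265111-65275544, which is 10434 bases, and NEAT1 (ENSG00000245532) spans chr11:65190245-65213011, which is 22767 bases. The gap between them is 52099 bases. Members were the sites of any read that lay on the plus strand inside either span. MALAT1 held 507 of them and NEAT1 held 911, summed over libraries, so that 1418 of 10639684 sites were used. The 2 genes are 2 of 46331 annotated genes with a site in any library.

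In PAR-CLIP, 4-thiouridine (4SU) taken up into RNA is crosslinked by long-wave UV to proteins that touch it, and a crosslinked base is later sequenced as C in place of T. Background came from cells with a stably integrated, doxycycline-inducible FLAG-tagged green fluorescent protein (GFP), which is not known to bind RNA. Its FLAG immunoprecipitate was cut from the gel at about 20, 35 and 45 kDa, and the slices (G20, G35 and G45) gave 1 library each. The labels do not call the slices replicates of one another, so a mean over them describes 3 gel regions. HuR was immunoprecipitated from the same kind of inducible line in 2 replicates. The labels do not say whether these were separate cultures, so that p-values measure only the spread between the libraries, which may be technical. The tagged HuR was made beside the HuR that HEK293 cells make themselves. Total was 1 library of crosslinked, 4SU-labelled lysate with no immunoprecipitation, from which ribosomal RNA was depleted. All cells received 4SU and UV, and the RNA of all libraries was partly digested with RNase T1, which cuts RNA after G. The immunoprecipitated libraries had a first digestion and another after immunoprecipitation. In Total the RNA was cut only after proteinase K had digested the proteins and ribosomal RNA was depleted.

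MALAT1 is an abundant RNA of nuclear speckles, the compartments that hold splicing factors. NEAT1 is the scaffold of paraspeckles, and it is made as a short and a long transcript that start together, of which the long one is needed to build the paraspeckle. HuR, the product of ELAVL1, binds U-rich stretches and is found mostly in the nucleus.

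The libraries held between 6187300 reads (G35) and 38644636 reads (G20). Reads in G20 and Total were concentrated, since the 10 sites with the most reads took 76.5% and 61.9% of them, compared to 2.46% to 21.1% in the other libraries. Of markers of the line, VIM was at 69.8 RPM in Total, INA at 18.1 RPM, PAX2 at 2.84 RPM and KRT18 at 1.34 RPM, while NEFM was at 0.111 RPM (RPM, reads scaled to the library total). Of markers of other cell types, ALB was at 1.28 RPM, PTPRC at 0.501 RPM, CD3E at 0.0278 RPM, and HBB had 0 reads.

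The sites with the most reads in MALAT1 are shown first, because a few of them hold much of the reads of this RNA. Stretches of at least 5 T and at least 4 G are in capitals, and all sequences read 5′ to 3′ on the plus strand of hg19. The first was the strongest in HuR replicate 2 and G20, the next was strongest in HuR replicate 1 and G35, and the third was strongest in G45. The one at 65270050 has the longest T stretch among them. That at 65273263 was the strongest of Total, and the last was the strongest of HuR replicate 2 among those that met no GFP site. Where libraries drew the borders of a site differently, a short form is printed. Reads, events and RPM given for a site are those of all sites of a library that meet the printed stretch. Such sites may reach beyond the stretch.
MALAT1 chr11:65271712-65271778: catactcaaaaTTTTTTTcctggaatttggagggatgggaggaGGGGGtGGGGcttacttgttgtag
MALAT1 chr11:65268287-65268421: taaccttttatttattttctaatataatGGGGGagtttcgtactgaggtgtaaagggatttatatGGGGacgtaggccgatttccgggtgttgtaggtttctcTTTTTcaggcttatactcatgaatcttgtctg
MALAT1 chr11:65267797-65267818: TTTTTgcattggactttgagtt
MALAT1 chr11:65270050-65270107: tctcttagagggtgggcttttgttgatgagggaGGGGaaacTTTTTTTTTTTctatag
MALAT1 chr11:65273263-65273287: actaaaaccaacttaaaccagtaag
MALAT1 chr11:65269953-65270013: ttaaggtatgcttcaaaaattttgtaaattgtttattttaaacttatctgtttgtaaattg

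The NEAT1 sites below were chosen in the same way. The first was the strongest of G20 and the second the strongest of G35 and G45. Those at 65209004 and 65209198 were the strongest of HuR replicates 2 and 1, that at 65193452 was the strongest of Total, and the last was the strongest of HuR replicate 2 among those that met no GFP site.
NEAT1 chr11:65192476-65192547: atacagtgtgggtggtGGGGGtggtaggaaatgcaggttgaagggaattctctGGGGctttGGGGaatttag
NEAT1 chr11:65195527-65195544: cctcagatcaggtgagat
NEAT1 chr11:65209004-65209131: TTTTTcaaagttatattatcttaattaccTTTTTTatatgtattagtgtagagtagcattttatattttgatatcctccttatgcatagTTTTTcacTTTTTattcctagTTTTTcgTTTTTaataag
NEAT1 chr11:65209198-65209258: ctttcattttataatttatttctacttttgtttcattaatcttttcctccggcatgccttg
NEAT1 chr11:65193452-65193471: aaactatcacctaaaatcag
NEAT1 chr11:65198305-65198343: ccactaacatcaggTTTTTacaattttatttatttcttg
The MALAT1 sites lie in annotated exons of MALAT1 transcripts. The NEAT1 sites at 65192476 and 65193452 lie in exons of 6 transcripts each, and the other 4 lie in the exon of 1 transcript, the long one.

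Both RNAs had a higher RPM in the HuR libraries than in the GFP slices. MALAT1 was at 38.1 RPM in G20 (95% Poisson interval 36.2 to 40.1), at 118 RPM in G35 (109 to 127) and at 105 RPM in G45 (98.2 to 113). It was at 298 RPM in HuR replicate 1 (287 to 309), at 1516 RPM in HuR replicate 2 (1502 to 1529) and at 211 RPM in Total (206 to 216). The slices were thus the 3 lowest libraries and HuR replicate 2 the highest, while the intervals of G35 and G45 overlapped. NEAT1 was at 14.3 RPM in G20 (13.1 to 15.5), 24.1 RPM in G35 (20.4 to 28.3) and 22.02 RPM in G45 (18.8 to 25.6). It was at 63.3 RPM in HuR replicate 1 (58.4 to 68.6), 222 RPM in HuR replicate 2 (217 to 227) and 58.9 RPM in Total (56.4 to 61.5). The order was the same as for MALAT1, with intervals that overlapped between G35 and G45 and between HuR replicate 1 and Total. Reads carried no molecular identifiers, so the intervals cover counting error only.

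The mean of the HuR replicates was 907 ± 861 RPM (SD, n = 2) for MALAT1 and that of the slices was 87.1 ± 42.9 RPM (SD, n = 3), a ratio of 10.4. For NEAT1 the means were 142.5 ± 112 RPM (SD, n = 2) and 20.1 ± 5.18 RPM (SD, n = 3), a ratio of 7.08. A two-sided exact permutation test of 2 libraries against 3 gave p = 0.2 for each, which is the smallest p this design allows. Both replicates stood above all slices for both RNAs, and this was also true of 53.1% of the genes tested. Total stood above all slices for both RNAs, as it did for 50.7% of genes. Without HuR replicate 2 the log2 ratio of the means was 1.77 for MALAT1 and 1.65 for NEAT1, compared to 3.38 and 2.82 with both replicates.

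**Figure D1:**
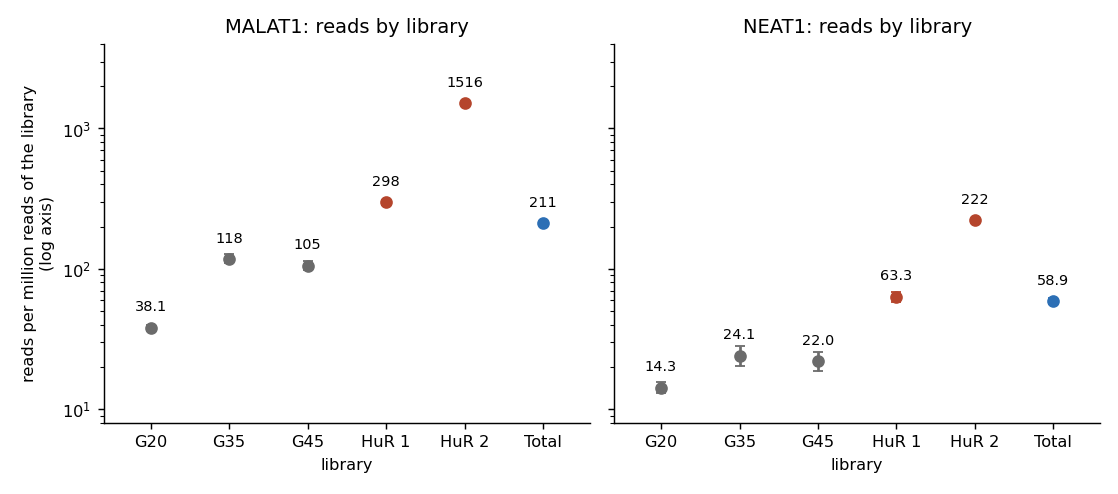
Level of MALAT1 and NEAT1 in each of the 6 libraries, in RPM on a log axis, with 95% Poisson intervals of the reads. For both RNAs the 3 GFP slices are lowest, from 38.1 to 118 RPM for MALAT1 and from 14.3 to 24.1 RPM for NEAT1, and HuR replicate 2 is highest, at 1516 and 222 RPM.

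The distance of G20 from the other slices depended on the few sites that dominate this library. Without the 10 sites with the most reads of each library, MALAT1 was at 162, 147 and 134 RPM in G20, G35 and G45, at 310 and 1554 RPM in the HuR replicates and at 554 RPM in Total. NEAT1 was then at 60.6, 29.9985 and 27.9 RPM in the slices, at 65.8 and 227 RPM in HuR and at 155 RPM in Total. On this scale Total stood above HuR replicate 1 for both RNAs.

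On the scale of TMM, which equalizes the bulk of genes between libraries, the groups overlapped. MALAT1 was at 8.29, 7.80 and 7.77 log2 CPM in G20, G35 and G45, at 8.13 and 10.17 log2 CPM in HuR replicates 1 and 2 and at 8.38 log2 CPM in Total. NEAT1 was at 6.87, 5.52 and 5.51 log2 CPM in the slices, 5.89 and 7.40 log2 CPM in HuR and 6.54 log2 CPM in Total. HuR replicate 1 thus lay below G20 for both RNAs. Both replicates stood above all slices for 23.2% of genes on this scale, and neither RNA was among them.

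Neither RNA passed the test across genes (edgeR's quasi-likelihood test with Benjamini-Hochberg adjustment over 27860 genes) in any comparison. For HuR against GFP, 1.77% of genes were called higher in HuR and 3.83% lower. The log2 fold change of MALAT1 was 1.51 (SE 0.92, adjusted p = 0.312 by edgeR) and that of NEAT1 was 0.71 (SE 0.81, adjusted p = 0.647 by edgeR), compared to a median of 0.08 over all genes tested. For HuR against Total, 2.01% of genes were higher and 1.6% lower in HuR. MALAT1 was at 1.10 (SE 1.31, adjusted p = 0.783 by edgeR) and NEAT1 at 0.29 (SE 1.11, adjusted p = 0.941 by edgeR), beside a median of 0.62. For GFP against Total, 4.0% of genes were higher and 0.413% lower in GFP, and both RNAs were slightly below the median of 0.10. MALAT1 was at −0.41 (SE 1.148, adjusted p = 0.888 by edgeR) and NEAT1 at −0.42 (SE 1.02, adjusted p = 0.865 by edgeR). None of these 6 values had an unadjusted p under 0.05, the lowest being 0.0998 for MALAT1 in HuR against GFP, and DESeq2 called none of them. Without HuR replicate 2, the value of MALAT1 for HuR against GFP fell from 1.51 to 0.11 and that of NEAT1 was −0.27, and that of MALAT1 for HuR against Total was −0.20.

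MALAT1 was the denser of the pair in every library. In RPM per kb of span, it was at 3.65 in G20, 11.3 in G35, 10.1 in G45, 28.6 and 145 in the HuR replicates and 20.2 in Total. NEAT1 was at 0.626, 1.06 and 0.967 in the slices, 2.78 and 9.74 in HuR and 2.59 in Total. By this density MALAT1 ranked 37th, 40th and 47th among lncRNAs with reads in G20, G35 and G45, 20th and 2nd in HuR replicates 1 and 2, and 15th in Total. NEAT1 ranked 116th, 333rd and 316th in the slices, 194th and 43rd in HuR and 75th in Total.

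The number of MALAT1 reads for each NEAT1 read needs no scaling to a library total. It was 2.67 for G20 (interval 2.42 to 2.95), 4.89 for G35 (4.10 to 5.88), 4.79 for G45 (4.05 to 5.70), 4.71 for HuR replicate 1 (4.31 to 5.15), 6.84 for HuR replicate 2 (6.67 to 7.01) and 3.58 for Total (3.41 to 3.76). G20 was lowest and HuR replicate 2 highest, and the intervals of G35, G45 and HuR replicate 1 overlapped. The means of HuR, 5.77 ± 1.51 (SD, n = 2), and of GFP, 4.12 ± 1.25 (SD, n = 3), did not differ beyond their spread (two-sided exact permutation test, p = 0.6).

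Reads on MALAT1 lay almost wholly between its bases 1045 and 8348, counted from the 5′ end of the span. With the span split into 10 bins of equal length, numbered from the 5′ end, bin 1 held at most 0.339% of MALAT1 reads in any library, bin 9 at most 1.01%, and bin 10 at most 0.0264%. Within these borders both HuR replicates had their maximum in another bin than Total, and the slices had theirs in 3 different bins.

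In the HuR libraries bin 4 (bases 3132 to 4174) was the highest, with 36.3% of MALAT1 reads in replicate 1 and 34.5% in replicate 2. Bin 7 (bases 6262 to 7304) followed with 23.0% and 34.0%. In Total these bins held 12.4% and 10.3%, and bin 6 (bases 5218 to 6261) and bin 8 (bases 7305 to 8348) were highest, with 30.6% and 26.3%. In HuR bins 6 and 8 held 11.1% and 6.73% in replicate 1 and 5.98% and 2.89% in replicate 2. Both bins where Total was highest thus held a smaller share in each HuR library than in Total, and bins 4 and 7 a larger one.

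Bin 3 (bases 2088 to 3131) held 18.2%, 20.4% and 37.4% of MALAT1 reads in G20, G35 and G45, compared to 4.02% and 1.55% in the HuR replicates and 9.79% in Total. In each slice 1 site made up most of this, so it was not a trait of the whole bin. The site at chr11:65267797-65267818 had 268 of the 297 bin 3 reads in G45. A slightly shorter form of it had 90 of 149 in G35. In G20 another site, chr11:65267887-65268218, had 164 of 268. Bin 4 held 13.2%, 29.4% and 28.3% in the slices, and bin 7 held 23.1%, 14.4% and 9.81%. G20 had its maximum in bin 7, G35 in bin 4 and G45 in bin 3.

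**Figure D2:**
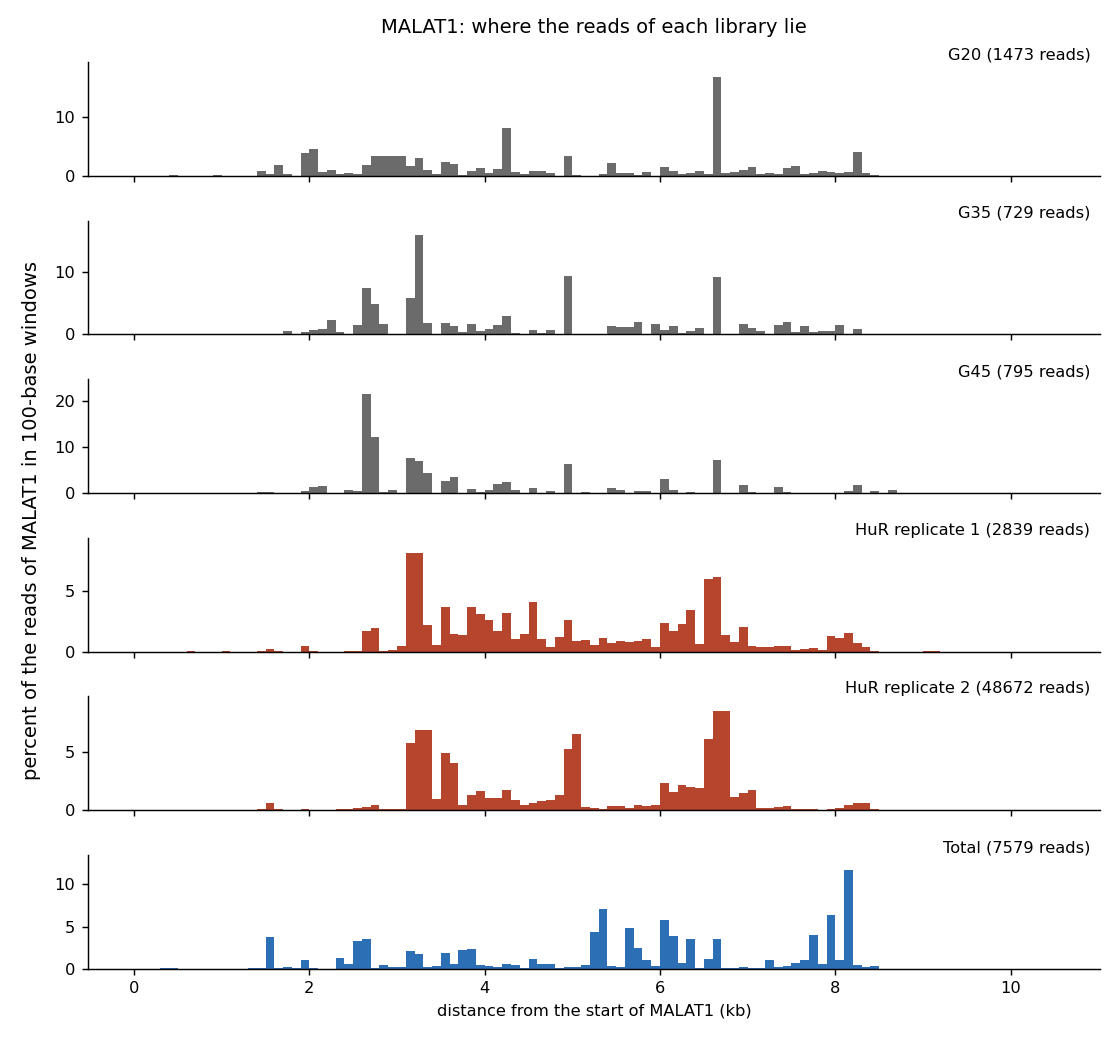
Reads along MALAT1 in each library: bars give the percent of the library's MALAT1 reads in windows of 100 bases, by distance from the 5′ end of the span (kb), with a vertical axis of its own for each library. The HuR replicates peak in bins 4 and 7 of the 10 bins of the span, with 36.3% and 34.5% and with 23.0% and 34.0% of reads, whereas Total peaks in bins 6 and 8, with 30.6% and 26.3%.

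The shares of the 10 bins gave a Pearson correlation of 0.953 between the HuR replicates, of 0.609 to 0.873 between slices and of 0.397 to 0.837 between a slice and a HuR library. With Total the correlation was 0.135 to 0.328 for the slices and 0.106 to 0.277 for HuR. These values are descriptions over 10 bins of 1 RNA, which share base composition, and they include bins that were nearly empty in all libraries.

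A few sites held much of the MALAT1 reads. Without the site with the most reads of each library, the mean correlation was 0.59 for GFP and HuR, 0.33 for GFP and Total and 0.28 for HuR and Total. With all sites these means were 0.61, 0.24 and 0.19. Single pairs moved more, from 0.397 to 0.981 for G45 and HuR replicate 2 and from 0.873 to 0.342 for G35 and G45. The site at chr11:65271712-65271778, in bin 7, holds a stretch of T followed by clusters of G, as printed above. Its level was 6.42, 10.3 and 7.56 RPM in G20, G35 and G45, 35.5 and 358 RPM in HuR replicates 1 and 2 and 9.46 RPM in Total. The site at chr11:65268287-65268421, in bin 4, was at 1.60, 25.4 and 17.6 RPM in the slices, 54.7 and 305 RPM in HuR and 8.55 RPM in Total. Both sites were higher in the HuR replicates than in any slice, and G35 and G45 were above Total at the second. The 3 sites with the most reads held 36.9%, 43.3% and 53.8% of MALAT1 reads in the slices, 35.5% and 55.6% in HuR and 18.6% in Total, which was the flattest profile.

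Of the MALAT1 sites printed above, chr11:65270050-65270107, with a long stretch of T after a G-rich stretch, had the widest ratio between the HuR replicates. It was at 1.27, 11.2 and 6.76 RPM in the slices, 8.50 RPM in replicate 1, 179 RPM in replicate 2 and 0.863 RPM in Total. Replicate 1 therefore lay between the slices at this site, and replicate 2 stood far above them. The 179 RPM are those of a wider site of 168 bases. Within its borders replicate 1 was at 10.5 RPM and the slices at 1.32, 11.3 and 6.76 RPM.

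Other sites were highest in another kind of library. The short site at chr11:65267797-65267818, in bin 3, was at 1.60, 14.5 and 35.5 RPM in G20, G35 and G45, at 10.7 and 10.3 RPM in HuR and at 0.0557 RPM (2 reads) in Total. Its reads were poor in conversions in every slice, with 6.45, 2.22 and 7.46 events per 100 reads, and also in HuR replicate 1 with 11.8, while HuR replicate 2 had 76.1. In HuR replicate 1, 102 reads met this stretch and 103 met the neighbouring chr11:65267741-65267779. Its 10.7 RPM and 11.8 events may thus be those of a longer site that spans both. At chr11:65273263-65273287 there were 580 reads in Total, 9 in G20, 0 in G35 and G45, and 42 and 41 in the HuR replicates. At chr11:65270479-65270506 there were 436 reads in Total, 1 in G20, 0 in G35 and G45, and 32 and 29 in HuR. Neither of these Total sites holds a stretch of 5 T or 4 G. Of the sites of HuR replicate 2 that met no GFP site, chr11:65269953-65270013 had the most reads, 473, compared to 18 in HuR replicate 1 and 6 in Total.

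On NEAT1, the slices placed a greater part of their reads near the 5′ end than HuR did. Bin 1 (bases 1 to 2277) held 69.7%, 35.6% and 28.9% of NEAT1 reads in G20, G35 and G45, compared to 24.7% and 13.6% in the HuR replicates and 18.8% in Total. It is the bin richest in G, at 34.2% of its bases, with 30 stretches of at least 4 G and 2 of at least 5 T. In Total bin 2 (bases 2278 to 4554) was highest, at 28.8%. In the HuR libraries bin 9 (bases 18215 to 20491) held 24.9% in replicate 1, where bin 1 was level with it (150 and 149 reads), and 32.6% in replicate 2, where it was highest, and it held 3.27%, 10.1% and 15.7% in the slices and 4.72% in Total. Bin 9 is in the part of NEAT1 that the short transcript does not hold.

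**Figure D3:**
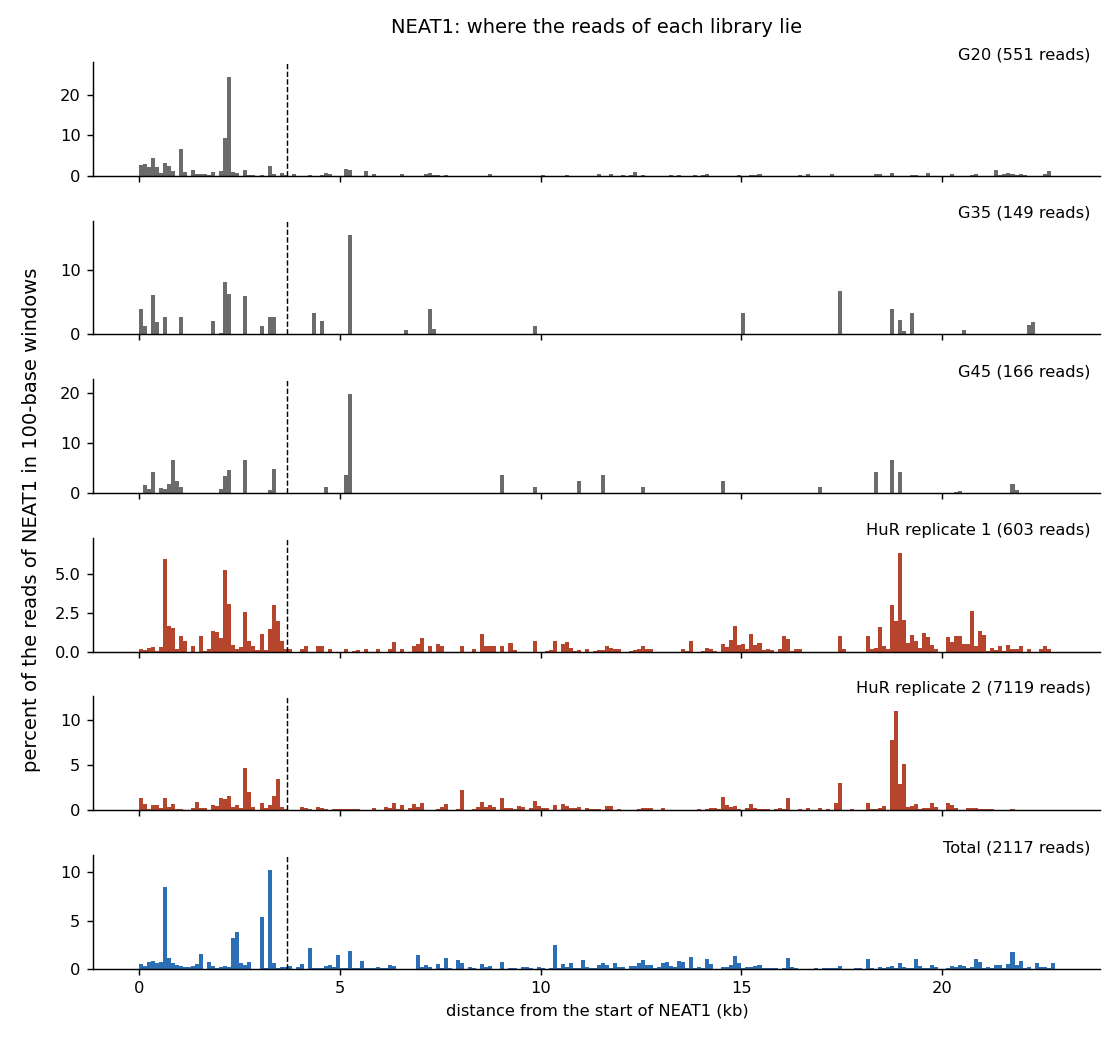
Reads along NEAT1 in each library: bars give the percent of the library's NEAT1 reads in windows of 100 bases, by distance from the 5′ end (kb), and the dashed line marks the end of the short transcript. Vertical axes differ between libraries. Of the 10 bins of the span, bin 1 holds 69.7% of reads in G20 and 13.6% in HuR replicate 2, while bin 9 holds 24.9% and 32.6% in the HuR replicates and 4.72% in Total.

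The short NEAT1 transcript ends at base 3684 of the span, which is 16.2% of its length, and reads in this segment may come from either transcript. The segment held 76.0% of NEAT1 reads for G20 (exact binomial interval 72.3 to 79.6), 48.3% for G35 (40.1 to 56.6) and 41.6% for G45 (34.0 to 49.5). It held 38.5% in HuR replicate 1 (34.6 to 42.5), 28.4% in HuR replicate 2 (27.4 to 29.5) and 44.0% in Total (41.9 to 46.2). All slices were above both HuR replicates, with means of 55.3% ± 18.3 (SD, n = 3) and 33.5% ± 7.09 (SD, n = 2), and Total lay among the slices. The two-sided exact permutation test gave p = 0.2, the smallest it can give. The interval of G45 overlapped that of HuR replicate 1. Per base, the segment had 16.4, 4.84 and 3.68 times the reads of the rest of NEAT1 in the slices, 3.24 and 2.06 times in HuR and 4.07 times in Total.

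The strongest NEAT1 site of G20, chr11:65192476-65192547, lies in this segment and holds several stretches of G and none of 5 T. It had 121 reads in G20, 19 in G35, 5 in G45, 15 and 126 in the HuR replicates and 2 in Total. In RPM this was 3.13, 3.07 and 0.663 in the slices, 1.57 and 3.92 in HuR and 0.0557 in Total, so that the groups overlapped. It took 21.96% of the NEAT1 reads of G20.

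The strongest NEAT1 site of both G35 and G45 was another one, chr11:65195527-65195544, a short site of the long transcript. It had 8 reads in G20, 23 in G35, 33 in G45, 0 and 3 in the HuR replicates and 0 in Total. In G35 and G45 there was 1 conversion event for each read, and all of them were at 1 location. In the deeper HuR replicate 2 it was at 0.0934 RPM, compared to 3.72 and 4.38 RPM in G35 and G45.

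The HuR sites of bin 9 are rich in T, as their sequences above show. The site at chr11:65209004-65209131 has 6 stretches of at least 5 T and none of 4 G, and it had 1147 reads in HuR replicate 2, 23 in replicate 1, 6 in Total, and 4, 0 and 11 in G20, G35 and G45. It was at 35.7 and 2.41 RPM in HuR replicates 2 and 1, and at no more than 1.46 RPM in the other libraries. Its neighbour at chr11:65209198-65209258 had 570 reads in HuR replicate 2, 50 in replicate 1, 14 in Total, and 0, 4 and 7 in the slices. It was the strongest NEAT1 site of HuR replicate 1, at 5.25 RPM, compared to at most 0.928 RPM in a slice. At both sites the 2 HuR libraries were above every slice and Total in RPM. The 570 reads are those of a wider site of 146 bases, in which replicate 1 had 51 reads and Total 16.

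The strongest NEAT1 site of Total, chr11:65193452-65193471, had 211 reads there, 17 in HuR replicate 2 and 0 in the other 4 libraries. Another, chr11:65190860-65190905, was at 4.73 RPM in Total, 3.57 and 2.65 RPM in HuR, and 0.311, 0.646 and 0 RPM in the slices. Of the sites of HuR replicate 2 that met no GFP site, chr11:65198305-65198343 had the most reads, 151, compared to 2 in HuR replicate 1 and 3 in Total, and it holds a stretch of 5 T.

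The Pearson correlation of the 10 bins of NEAT1 was 0.805 between the HuR replicates, 0.709 to 0.903 between slices, and 0.141 to 0.633 between a slice and a HuR library. With Total it was 0.382 to 0.551 for the slices and 0.172 to 0.423 for HuR. As for MALAT1, these describe 10 bins of 1 RNA. NEAT1 was covered more thinly than MALAT1. Sites covered 14.0%, 3.58% and 4.03% of its bases in G20, G35 and G45, 24.6% and 43.7% in HuR and 35.9% in Total. The sites of MALAT1 covered 38.9%, 18.3% and 15.9% of its bases in the slices, 49.3% and 57.4% in HuR and 51.2% in Total.

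The share of conversions differed between libraries on both RNAs. MALAT1 had 19.1 conversion events per 100 reads (G20), 70.2 (G35) and 28.3 (G45) in the slices, compared to 94.7 and 105 in the HuR replicates and 18.6 in Total. NEAT1 had 22.5, 88.6 and 54.2 in the slices, 99.0 and 105 in HuR and 20.8 in Total. A read can hold more than 1 event. Both HuR replicates were above all slices on both RNAs, as they were for 48.0% of the 1639 genes with at least 100 reads in each library. The means were 99.8 ± 7.20 (SD, n = 2) in HuR and 39.2 ± 27.3 (SD, n = 3) in GFP for MALAT1, and 102 ± 3.94 and 55.1 ± 33.1 for NEAT1 (two-sided exact permutation test, p = 0.2 for each, the smallest it can give).

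Set against other genes of the same library, MALAT1 was among the poorer in conversions in G45. There 1 site, chr11:65267797-65267818, held 268 of its 795 reads at 7.46 events per 100 reads, which lowers the value. The median gene with at least 100 reads had 25.7, 78.9 and 65.0 events per 100 reads in G20, G35 and G45, 87.8 and 97.2 in the HuR replicates and 19.8 in Total. Only 19.4% of genes had fewer than MALAT1 in G45, compared to 31.8% in G20, 41.3% in G35, 74.1% and 83.3% in HuR and 42.8% in Total. For NEAT1 these shares were 41.5%, 62.2% and 38.9% in the slices, 93.0% and 82.1% in HuR and 56.8% in Total. In HuR both RNAs were thus above most genes in events per read, a measure not scaled to the number of T in a site. Over all sites of a library the values were 18.7, 61.7 and 56.2 in the slices, 48.6 and 87.3 in HuR and 36.9 in Total.

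**Figure D4:**
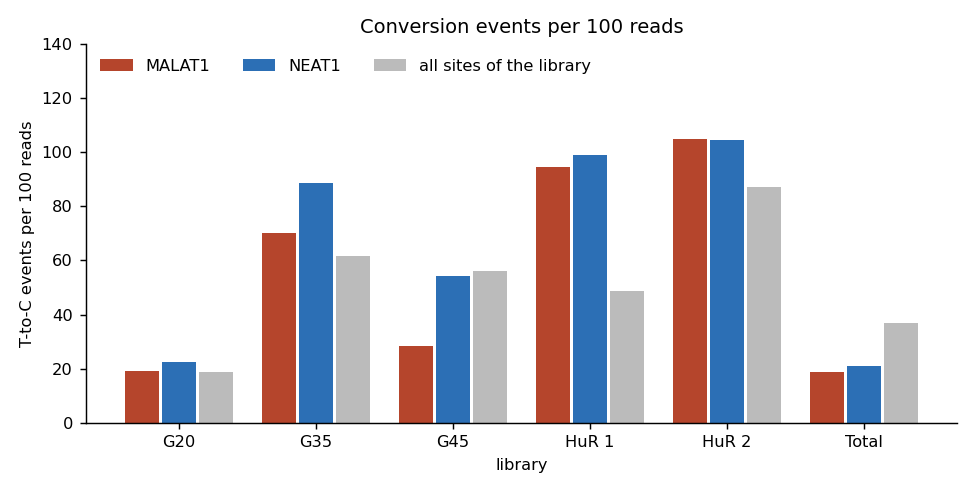
Bars give T-to-C conversion events per 100 reads on MALAT1 and NEAT1 and over all sites of the library (grey), for each of the 6 libraries. Both RNAs have 94.7 to 105 events in the HuR libraries and 18.6 to 22.5 in G20 and Total, and MALAT1 in G45 (28.3) lies below all sites of that library (56.2).

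At sites with 1 read, the event count says whether that read was converted. On NEAT1 in HuR replicate 1, 93 of 108 such sites were converted (86.1%, exact binomial interval 78.1 to 92.0), compared to 19 of 84 in Total (22.6%, 14.2 to 33.1) and 11 of 35 in G20. On MALAT1 it was 19 of 20 in HuR replicate 1, 7 of 25 in Total and 6 of 17 in G20. HuR replicate 2, G35 and G45 had at most 15 such sites on either RNA. In the authors' clusters, the share of T positions read as C was 10.6% and 10.7% on MALAT1 in the HuR replicates, and 3.03%, 7.56% and 2.91% in the slices. On NEAT1 it was 10.9% and 9.26% in HuR and 4.97%, 14.5% and 7.68% in the slices, so that on this measure G35 was above both HuR replicates for NEAT1. Total had 2.36% on MALAT1 and 3.53% on NEAT1. Over all clusters this share was 11.4% and 10.5% in HuR replicates 1 and 2, 4.03%, 13.3% and 12.0% in the slices and 9.81% in Total. Per T position, both RNAs were thus below all clusters in HuR replicate 1. In replicate 2 NEAT1 was below them and MALAT1 was about level with them.

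Most sites of HuR on MALAT1 met a site of at least 1 GFP slice on the same strand. Of the sites of HuR replicate 1, 81 of 98 did (82.7%, exact binomial interval 73.7 to 89.6), and of replicate 2, 72 of 83 (86.7%, 77.5 to 93.2). These sites held 96.9% and 98.7% of the MALAT1 reads of the replicates. Total gave 97 of 130 (74.6%, 66.2 to 81.8), with 94.1% of reads, so the overlap was not particular to HuR. On NEAT1 the shares were lower, at 73 of 199 in HuR replicate 1 (36.7%, 29.98 to 43.8), 89 of 290 in replicate 2 (30.7%, 25.4 to 36.3) and 90 of 275 in Total (32.7%, 27.2 to 38.6). They held 57.0% and 65.2% of the reads in HuR and 39.2% in Total.

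Over all sites of the libraries, 8.94%, 7.61% and 9.44% met a GFP site in HuR replicate 1, HuR replicate 2 and Total, and these held 63.2%, 27.4% and 80.8% of reads. The share of reads on NEAT1 was thus below that of all sites in HuR replicate 1 and Total, and above it in HuR replicate 2. Over sites inside genes the shares of reads were 53.1%, 25.5% and 52.7%. NEAT1 was above these in both HuR replicates and below in Total. Among genes with at least 50 sites, MALAT1 had the highest share of sites meeting GFP in each HuR replicate, 1st of 7804 and 1st of 10202, and was 5th of 10548 in Total. NEAT1 ranked 107th, 275th and 965th. By share of reads, MALAT1 ranked 44th, 7th and 46th and NEAT1 971st, 262nd and 1822nd. The median share of reads over these genes was 15.8%, 13.3% and 12.6%.

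How much of each RNA the GFP sites covered moved with these shares. GFP sites covered 44.9% of the bases of MALAT1 and were met by 57.8% of all its stretches of 22 bases, compared to 17.2% and 25.7% for NEAT1. Sites that met GFP were also longer, with a median of 41 and 59 bases on MALAT1 in HuR replicates 1 and 2, compared to 28 and 27 bases for those that did not. On NEAT1 these medians were 30 and 33 bases, compared to 24 and 27. The part of length and coverage in the overlap was not tested. Much of it rested on G20, the deepest slice. With G20 left out, the mean share of HuR sites on MALAT1 was 61.3% and on NEAT1 16.2%, compared to 84.7% and 33.7% with all slices, and for Total it was 50% and 14.5%.

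**Figure D5:**
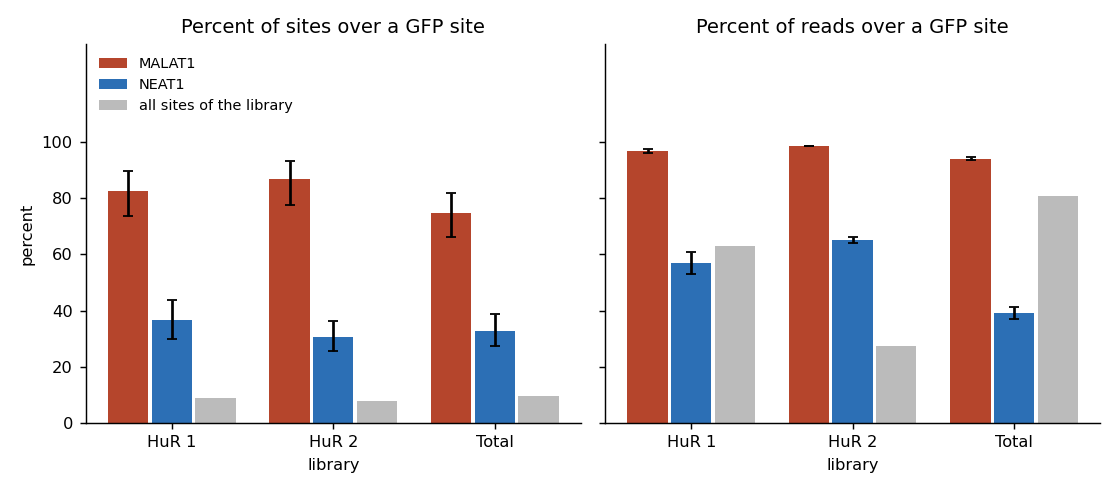
Share (percent) of sites, left, and of reads, right, that met a GFP site on the same strand, on MALAT1, on NEAT1 and over all sites (grey), for HuR replicates 1 and 2 and Total, with 95% exact binomial intervals for both RNAs. By sites, MALAT1 lies between 74.6% and 86.7%, NEAT1 between 30.7% and 36.7%, and all sites between 7.61% and 9.44%.

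The slices shared more of their sites on MALAT1 than on NEAT1. A MALAT1 site met sites of both other slices in 29 of 87 cases (G20), 30 of 57 (G35) and 33 of 52 (G45), and met neither in 29, 7 and 4 cases. On NEAT1 it was 9 of 90 in G20, 9 of 26 in G35 and 9 of 31 in G45, and neither in 66, 11 and 10 cases. With at least 25 reads required in every library, 4 of 13, 5 of 5 and 4 of 6 MALAT1 sites were found in all slices. On NEAT1, 4 sites of G20, 0 of G35 and 1 of G45 had at least 25 reads, and none of the 5 was shared.

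Letters of the sites differed between the RNAs. Of NEAT1 sites, GGGG was present in 32.2% for G20 (exact binomial interval 22.8 to 42.9), 30.8% for G35 (14.3 to 51.8) and 45.2% for G45 (27.3 to 64.0). It was present in 17.1% (12.1 to 23.0) and 17.6% (13.4 to 22.5) in the HuR replicates and 16% (11.9 to 20.9) in Total. All slices were thus above the HuR and Total libraries, and all libraries were above the 7.95% of all stretches of 22 bases along NEAT1. On MALAT1 the same letters were present in 21.8%, 21.1% and 28.8% in the slices, 20.4% and 27.7% in HuR and 16.9% in Total, beside 8.87% of its stretches of 22 bases, and slices and HuR overlapped. Over all sites of the libraries GGGG was in 21.6%, 13.2% and 10.9% in the slices, 6.47% and 7.70% in HuR and 4.92% in Total. Many sites are longer than 22 bases, which raises the chance of a match.

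TTTTT was found in 5.56% of NEAT1 sites for G20 (1.83 to 12.5), 11.5% for G35 (2.45 to 30.2), 16.1% for G45 (5.45 to 33.7), 13.6% (9.14 to 19.1) and 18.3% (14.0 to 23.2) in HuR and 7.27% in Total (4.50 to 11.01). All stretches of 22 bases gave 7.17%. HuR replicate 2 was above Total with intervals that did not overlap, while G45 lay between the HuR replicates. On MALAT1 it was 18.4%, 24.6% and 17.3% in the slices, 21.4% and 24.1% in HuR and 18.5% in Total, beside 8.30% of its stretches of 22 bases, with no separation of the groups. Among sites of 30 bases or fewer on MALAT1, TTTTT was in 6.45%, 25% and 10.7% in the slices, in 4 of 32 sites of HuR replicate 1 (12.5%) and in 0 of 24 of replicate 2, so that the HuR replicates lay on either side of the RNA as a whole. On NEAT1, GGGG was in 12.2%, 12.5% and 44.4% of sites of 30 bases or fewer in G20, G35 and G45, in 12.8% and 9.32% in HuR and in 8.65% in Total, so that in short sites the slices no longer all stood above HuR, and the GFP mean of 23.1% rested on G45 (8 of 18 sites). The AU-rich letters ATTTA were in 5.77% to 9.20% of MALAT1 sites in the slices, 12.2% and 15.7% in HuR and 10.8% in Total, with intervals that overlapped, and in at most 7.24% of NEAT1 sites in any library.

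On NEAT1, GGGG was more frequent in HuR sites that met GFP, which are also longer. It was in 25 of 73 sites of HuR replicate 1 that met GFP (34.2%, 23.5 to 46.3) and in 9 of 126 that did not (7.14%, 3.32 to 13.1). In replicate 2 it was in 28 of 89 (31.5%, 22.03 to 42.2) and 23 of 201 (11.4%, 7.39 to 16.7). TTTTT was in 12.3% of sites that met GFP and 14.3% of those that did not in replicate 1, and in 15.7% and 19.4% in replicate 2, with intervals that overlapped. Total showed the same kind of split for GGGG, at 28.9% and 9.73%. Among sites of 30 bases or fewer, GGGG was in 29.7% (15.9 to 47.0) of those that met GFP and 6.73% (2.75 to 13.4) of the others in replicate 1, but in 13.2% (4.41 to 28.1) and 8.13% (3.97 to 14.4) in replicate 2, where the intervals overlapped. Short Total sites gave 17.8% (8.002 to 32.1) and 5.71% (2.50 to 10.9), also with overlapping intervals. On MALAT1 too few sites were free of GFP for this, 17 and 11 in the HuR replicates, of which 1 and 0 held TTTTT.

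Measured in bases instead of sites, stretches of at least 4 G made up 1.92% of NEAT1 and 7.01%, 9.09% and 10.3% of the bases covered in G20, G35 and G45, compared to 3.32% and 3.03% in HuR and 2.70% in Total. Stretches of at least 5 T made up 2.25% of NEAT1 and 0.880%, 2.95% and 4.14% of the bases covered in the slices, 3.18% and 3.63% in HuR and 1.64% in Total. The slices were thus above HuR for G stretches on NEAT1 and on both sides of HuR for T stretches. On MALAT1, G stretches made up 3.37%, 5.02% and 5.25% in the slices, 2.64% and 2.74% in HuR and 2.66% in Total. Between 77.4% and 99.0% of the sites on either RNA ended in G, the base after which RNase T1 cuts.

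Weighted by reads, the sites of NEAT1 were 41.9%, 33.5% and 27.7% G in G20, G35 and G45, 24.3% and 20.0% in HuR and 16.6% in Total, compared to 23.6% of the span. Their T content was 22.8%, 30.02% and 34.0% in the slices, 34.9% and 40.9% in HuR and 27.6% in Total, compared to 31.7% of the span. The HuR replicates were below all slices in G and above all slices in T. On MALAT1, T made up 29.6%, 36.4% and 42.6% in the slices, 33.9% and 34.9% in HuR and 29.9% in Total, and the groups overlapped.

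Other noncoding RNAs, not all of them nuclear, were read from a list of 24 symbols, 23 of which were tested. For HuR against GFP, 1 was higher in HuR and 4 were lower, compared to 1.77% and 3.83% of all genes. The median log2 fold change was −0.19, compared to 0.08 over all genes. The higher one was JPX, an activator of X inactivation, and the lower ones were GAS5 and SNHG1, hosts of small nucleolar RNAs, RN7SK, which holds back the elongation factor P-TEFb, and TERC, the telomerase RNA. These names were chosen after their values were seen. DESeq2 called 3 higher and 5 lower, including these 5, compared to 771 and 2252 of 22458 genes. JPX was at 4.97, 23.6 and 26.1 RPM in the slices and 203 and 558 RPM in HuR, and GAS5 was at 145, 53.5 and 39.0 RPM in the slices and 7.45 and 19.6 RPM in HuR. For HuR against Total, MEG3 and RMRP were higher and SNHG1 was lower, compared to 2.01% and 1.6% of all genes, with a median of 0.24 beside 0.62. MEG3 was at 64.0 RPM in HuR replicate 1 but at 2.52 RPM in replicate 2. It was at 0.362, 4.85 and 6.76 RPM in G20, G35 and G45 and at 0.445 RPM in Total, so its call rested mainly on replicate 1. For GFP against Total, RMRP and RN7SK were higher and 0 of 23 were lower, compared to 4.0% and 0.413% of all genes. The median was 0.12 beside 0.10. DESeq2 called 4 higher and 0 lower, compared to 2941 and 121 of 23539 genes. By edgeR, 8 of 23 had an unadjusted p under 0.05 in either direction, compared to 4499 of 27860 genes. RMRP had 0 reads in Total, G20 and G45 and 37.8 RPM in G35.

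By mean RPM the highest of this list were MIR17HG, the host of the miR-17-92 cluster, FTX, a lncRNA of the X inactivation centre, and DLEU2, the host of miR-15a and miR-16-1. MIR17HG was at 223, 3817 and 3194 RPM in the slices, 90.1 and 746 RPM in HuR and 40.6 RPM in Total (log2 fold change for HuR against GFP −4.00, adjusted p = 0.0603 by edgeR). FTX was at 11.02, 49.1 and 39.4 RPM in the slices, 290 and 852 RPM in HuR and 142 RPM in Total (2.38, adjusted p = 0.0805 by edgeR). DLEU2 was at 9.52, 36.8 and 38.6 RPM in the slices, 246 and 745 RPM in HuR and 132 RPM in Total (2.39, adjusted p = 0.0757 by edgeR). DESeq2 called each of these 3 for HuR against GFP, MIR17HG lower and the other two higher in HuR. MALAT1 was above both FTX and DLEU2 in every library, and MIR17HG was above MALAT1 in each slice. Reads of each gene of this list are summed over its whole span, with introns and any small RNA encoded within it. They are therefore not levels of the lncRNA alone.

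The mRNAs of paraspeckle proteins were a further list, with 30 of 30 genes tested. By edgeR 0 of them passed in any comparison, while 2, 0 and 4 had an unadjusted p under 0.05 for HuR against GFP, HuR against Total and GFP against Total. Over all 27860 genes tested, 6384, 3805 and 4499 did. DESeq2 called 1, PSPC1, higher in HuR than in GFP, beside 771 of 22458 genes, and 0 in the other comparisons. The medians were 0.85, −0.09 and −0.61, beside 0.08, 0.62 and 0.10 over all genes. SFPQ, an essential paraspeckle protein, was the highest of the list, at 29.3, 47.7 and 36.9 RPM in the slices, 138 and 572 RPM in HuR and 114.5 RPM in Total. HNRNPR was at 10.1, 35.1 and 25.3 RPM in the slices and 125 and 378 RPM in HuR, and TAF15 was at 18.7, 36.2 and 25.1 RPM and at 123 and 342 RPM.

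Of 23 genes of nuclear speckle proteins and of proteins that process or bind MALAT1, all were tested. By edgeR 0 passed in any comparison, while 6, 1 and 5 had an unadjusted p under 0.05 in the same order. Over all 27860 genes tested, these counts were 6384, 3805 and 4499. DESeq2 called HNRNPC higher and SRRM2 and U2AF2 lower in HuR than in GFP, and 0 in the other comparisons. For HuR against GFP it called 771 of 22458 genes higher and 2252 lower. The medians were 1.02, −0.55 and −0.81. HNRNPC, which binds U-rich RNA, was at 7.25, 43.6 and 36.5 RPM in the slices, 234 and 782 RPM in HuR and 106 RPM in Total. SRRM2, a scaffold of speckles, was at 91.1, 100.04 and 61.4 RPM in the slices, 31.6 and 124 RPM in HuR and 287 RPM in Total. SON, also a scaffold of speckles, was at 16.8, 42.3 and 21.8 RPM in the slices, 51.2 and 252 RPM in HuR and 132 RPM in Total.

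The genes whose log2 CPM over the 6 libraries, centred on its mean, lay nearest to that of MALAT1 were CLIC4, RAB5B and TMEM202-AS1, at Euclidean distances of 0.36, 0.38 and 0.38, compared to a median distance of 3.19 over all genes tested. CLIC4 was at 5.23, 17.8 and 16.05 RPM in the slices, 56.0 and 252 RPM in HuR and 36.5 RPM in Total. Among the genes near NEAT1 were WEE1 and CKS2, at 0.24 and 0.31, with a median of 3.03. WEE1 was at 4.14, 6.14 and 5.04 RPM in the slices, 15.96 and 55.8 RPM in HuR and 14.8 RPM in Total. The 2 lncRNAs were at 1.03 from each other, so that NEAT1 was 722nd in the order from MALAT1 and MALAT1 766th in the order from NEAT1.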

How the data were processed

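The authors mapped reads to hg19 with Bowtie, which the submitters' processing notes also name, and passed uniquely mapping reads with 0 to 2 T-to-C mismatches to PARalyzer. Per library they deposited a groups table, whose rows (any stretch with a read) are the sites used here, and a clusters table. The deposited values are raw counts per site of reads, conversion locations and conversion events, and duplicate removal is not stated.

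Spans and transcripts came from GENCODE mapped to GRCh37, the same build as hg19, and all 2044 sequences of groups and clusters on both RNAs matched the reference. Reads of sites wholly inside a gene on its strand were summed for 46331 genes. Those that passed filterByExpr (27860) were tested with edgeR 4.0.16 (TMM, glmQLFit and glmQLFTest, all 6 libraries in 1 fit, adjusted p threshold 0.05) in R 4.3.3. Total, a lone library, was assumed to vary like the others. On simulated counts for HuR against GFP over 27860 genes, 9 of 100 changes of 4-fold and 62 of 100 of 16-fold were recovered, with 1 false call. Low power therefore limits what a missed threshold can say.

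Levels are RPM of all site reads. Intervals are 95% exact Poisson or binomial intervals and cover counting error only. A span was cut into 10 bins, with a site placed by its midpoint. An overlap is at least 1 shared base on the same strand. Exact matches of 5 T, of ATTTA and of 4 G in a row were searched on the strand of the site only, and no base can belong to more than 1 of them.

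The members and gene lists were chosen with earlier results of these data known. Named are the 3 list genes with the highest mean RPM, the 3 genes nearest to each RNA by centred log2 CPM (prior count 2), in each library the 3 sites richest in reads, and the 3 strongest sites of HuR replicate 2 that met no GFP site. Not every site or gene that this rule gives is reported here.

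Alternatives changed the size factors, filters, read minimum (5), tool (DESeq2 1.42.0), libraries in the fit, the total, window size (500 bases), overlap (10 bases, either strand), clusters for groups and libraries left out. Python 3.11.15, numpy 2.4.6, pandas 2.3.3, scipy 1.17.1 and matplotlib 3.10.9 were used.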

Additional observations from a re-analysis of the deposited data

Results flagged for a closer look

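Minus-strand reads over NEAT1 were outside the comparisons above, and in HuR replicate 1 they stood above every GFP slice. They came to 1.99 RPM there (19 reads, 95% Poisson interval 1.20 to 3.11), compared to 0.0518, 1.45 and 0.663 RPM in G20, G35 and G45 (2, 9 and 5 reads), 0.436 RPM in HuR replicate 2 (14 reads) and 0.251 RPM in Total (9 reads). The interval of G35 was 0.665 to 2.76 RPM and overlapped that of HuR replicate 1.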

How the results depend on the processing

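No paired analysis was possible because only the HuR libraries carry replicate numbers and no other group shares them. Of 380 alternatives over all results, 149 and, among those that left out a library, 102 kept their direction and their side of the threshold or stayed within the spread. The direction was turned in 1 and 6 of them, and the cause of the other shifts was not tested. For the mean of a group, leaving out a library can never shift the value by as much as its SD. Those cases were therefore bound to count as unmoved, and they say nothing about how stable the means are. DESeq2 or RLE size factors brought neither RNA past the threshold in any comparison. TMM levels, clusters in the overlap, sites of 30 bases or fewer and the libraries left out of levels and letters were chosen after seeing the data.

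Counts of called genes moved most. For HuR against GFP, 494 genes higher became 287 with RLE size factors (beside 1157 lower), 313 with no filter, 140 with sites of 5 or more reads, 160 in a fit of both groups alone and 771 with DESeq2. The 1066 lower became 88 with sites of 5 or more reads and 2252 with DESeq2. For HuR against Total, 561 higher became 1028 with DESeq2, and 445 lower became 74 with sites of 5 or more reads. In a fit of both groups alone edgeR called 0 in either direction, with 5244 at an unadjusted p under 0.05, and NEAT1 was at −0.20. For GFP against Total, 1114 higher became 484 with sites of 5 or more reads, 475 in a fit of both groups alone and 2941 with DESeq2, and 115 lower became 20 and 39 in the first 2 of these. With a library left out, the counts ran from 0 to 857 higher and 0 to 495 lower for HuR against GFP. They ran from 0 to 398 and 0 to 181 for HuR against Total and from 0 to 1250 and 0 to 150 for GFP against Total. The 0 for HuR against GFP arose in edgeR without G20 (5844 genes at an unadjusted p under 0.05) and without G45 (4769), and without G45 also for HuR against Total (3591) and GFP against Total (3240).

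With a library left out, the log2 fold change for HuR against GFP of MALAT1 ran from 0.11 to 2.20 and that of NEAT1 from −0.27 to 1.28. For HuR against Total, that of MALAT1 ran from −0.20 to 1.79 and that of NEAT1 from −0.60 to 0.85, with −0.14, −0.16 and −0.16 without G20, G35 and G45. The lowest value of each of these 4 arose without HuR replicate 2. The log2 ratio of mean RPM ran from 1.77 to 4.12 for MALAT1 and from 1.65 to 3.46 for NEAT1, and was 1.51 and 0.71 with TMM.

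Levels moved with the total. For MALAT1, the slices averaged 147 RPM without the 10 sites with the most reads and 251 CPM with TMM, and Total was at 554 and 332, at 239.9 without the mitochondrial genome and at 201 in clusters. For NEAT1 the slices averaged 39.5, 69.2 and, in clusters, 11.7, and Total was at 155, 92.7, 67.0 without the mitochondrial genome and 40.3 in clusters. NEAT1 in clusters of Total had 23.2 events per 100 reads.

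In windows of 500 bases, the mean correlation of HuR and Total on MALAT1 was 0.32. Without the site with the most reads of each library, the means on NEAT1 were 0.72 for GFP and HuR, 0.72 for GFP and Total and 0.57 for HuR and Total, and the short segment held 37.8% of Total reads.

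On MALAT1, the share of HuR sites that met GFP was 81.4% with 10 shared bases and 69.9% with 5 or more reads in both sites, and 93.4% of reads in the latter. For Total it was 84.6% of clusters. Of Total reads it was 87.4% with 10 bases, 63.7% with 5 reads and 90.7% in clusters. On NEAT1, HuR had 29.2% of sites with 5 reads, 42.6% of clusters and 69.6% of reads in clusters. Total had 18.8% of sites with 5 reads, and of reads 34.9% with 10 bases, 18.4% with 5 reads and 37.1% in clusters. With a slice left out, MALAT1 ran from 61.3% to 80.6% of HuR sites, 92.0% to 97.0% of HuR reads, 50% to 71.5% of Total sites and 59.6% to 91.5% of Total reads. NEAT1 ran from 16.2% to 31.1%, 49.6% to 58.9%, 14.5% to 29.8% and 21.1% to 36.99%, and the lowest values arose without G20. With a HuR replicate left out, the share is that of the other: 82.7% or 86.7% of sites and 96.9% or 98.7% of reads on MALAT1, and 36.7% or 30.7% and 57.0% or 65.2% on NEAT1.

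Letters moved with site length and weight. On MALAT1, TTTTT was in 47.1%, 24.7% and 14.1% of GFP sites when weighted by reads, with 5 or more reads and with 30 bases or fewer, and in 69.3%, 26.8% and 6.25% of HuR sites. GGGG was in 45.7%, 31.9% and 16.2% of GFP sites, in 75.7% (weighted) and 10.9% (30 bases or fewer) of HuR sites and in 9.38% of Total sites of 30 bases or fewer. On NEAT1, TTTTT was in 34.2%, 20.3% and 11.3% of HuR sites. GGGG was in 47.5%, 44.4% and 23.1% of GFP sites, in 24.7%, 28.7% and 11.04% of HuR sites and in 8.65% of Total sites of 30 bases or fewer.

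Depth limits G35 and G45 most, with 149 and 166 NEAT1 reads.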

Other observations

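Over MALAT1 the minus strand held 33, 27 and 1 reads in G20, G35 and G45, 1 and 20 reads in HuR replicates 1 and 2 and 16 reads in Total. In G20, 32 of these reads were at 1 site, chr11:65265465-65265483, with 32 conversion events, and in G35 the same site had 26 reads with 26 events. It is near the 5′ end of the MALAT1 span, where the plus strand was almost empty in every library.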
